A study of Mus musculus with 26 samples.

Results

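The antioxidant genes described here are Nfe2l2, which encodes the transcription factor NRF2, its inhibitor Keap1, and 8 genes for enzymes that hold down oxidants: Nqo1, Gclc, Gclm, Srxn1, Txnrd1, Sod1, Sod2 and Gpx4. The 10 genes were taken by symbol from the 50686 entries of the deposited count table, each matched 1 Ensembl gene, and all 10 were among the 17286 genes with enough counts to be tested. They were measured by RNA-sequencing in supraclavicular brown adipose tissue (BAT) of 26 C57BL/6J mice that had spent 2 weeks at thermoneutrality. Of these, 7 control mice and 7 mice labelled Afadin KO stayed at thermoneutrality (30 °C in the sample labels, 29 °C in the study's methods), while 5 control mice and 7 mice labelled Afadin KO spent 6 h at 5 °C before the tissue was taken. The mice were male, 12 to 16 weeks old when the experiment began and housed singly. The knockouts carry Mllt4 flox/flox, Mllt4 being an older name of the Afadin gene Afdn, with a Cre recombinase under the adiponectin promoter, so that deletion is aimed at adipocytes while the other cells of the tissue keep the gene. The controls were littermates, whose exact alleles were not given in the sources used here.

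NRF2 is a transcription factor that is made and destroyed continuously: KEAP1 ties it to a CUL3 ubiquitin ligase, and oxidants or electrophiles that modify KEAP1 cysteines let NRF2 accumulate without any change in its mRNA. NRF2 then pairs with a small MAF protein at antioxidant response elements and raises genes for glutathione synthesis, thioredoxin reduction and quinone detoxification. Brown adipocytes are dense in mitochondria, which release superoxide and peroxide when they respire, and the dismutases and peroxidases are the first enzymes to meet them.

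Total counts per library ran from 12705969 to 25732258, and genes of the mitochondrial genome took between 14.3% and 40.5% of them. Levels are given as CPM, the counts of a gene scaled to a common library total with TMM factors. The brown adipocyte markers summed to between 7170 and 9071 CPM at 30 °C and between 25919 and 32688 CPM at 5 °C. This sum includes Ucp1, which rose from at most 1292 to at least 13014 CPM, in the direction of the temperature labels. Of the 9 markers, 4 rose and 2 fell with cold in control mice, and 4 rose and 3 fell in KO-labelled mice. For the genotype label, Afdn was at 151 to 214 CPM in control and 154 to 231 CPM in KO-labelled mice at 30 °C, and at 67.9 to 79.2 and 53.3 to 65.3 CPM at 5 °C. Kng1, which lies close to Adipoq, was at or below 0.0773 CPM in every control mouse and at 7.35 to 21.9 CPM in every KO-labelled mouse. Because Afdn was not lower in the KO libraries at 30 °C, these groups are called KO-labelled, although at 5 °C every KO library was below every control library. By immunoblot, the study reported a smaller cold-induced rise of Afadin protein in BAT of its knockout mice. It also blotted Afadin of both genotypes at thermoneutrality and measured Mllt4 mRNA by RT-qPCR. It reported that the protein rise did not come from more Mllt4 mRNA. The genotype differences in that blot and in that mRNA are in its figures and are not stated in its text. Skeletal muscle markers summed to between 0.815 and 7545 CPM and spread over that range within the groups. Among markers of other cell types, in control mice the endothelial sum was 445 to 552 CPM at 30 °C and 708 to 803 CPM at 5 °C, the lymphocyte sum 3.94 to 9.53 and 1.30 to 2.77 CPM, and the neutrophil median 2.66 and 7.83 CPM. In KO-labelled mice the endothelial sum was 494 to 622 and 614 to 813 CPM, with ranges that overlapped. The lymphocyte sum was 4.24 to 10.4 and 1.67 to 19.9 CPM (median 5.68 and 2.75), also with overlap. The neutrophil sum was 1.69 to 4.15 and 4.54 to 55.4 CPM (median 3.15 and 9.53). The macrophage sum was 197 to 285 and 210 to 269 CPM in control mice. In KO-labelled mice it was 193 to 242 and 221 to 326 CPM. Of 8 macrophage markers, 3 rose and 3 fell in control mice, and 5 rose and 2 fell in KO-labelled mice. The endothelial markers did not move together. Of 6, 3 rose and 3 fell in control mice, and 3 rose and 2 fell in KO-labelled mice. Of all tested genes, 31.6% rose and 33.4% fell in control mice, and 33.7% rose and 34.9% fell in KO-labelled mice. Ly6g, a neutrophil marker, was at 0 in both groups at 30 °C. Their part in the cold responses was not tested. In tissue RNA, fewer cells of a type and less RNA per cell cannot be told apart.

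In control mice, 6 h at 5 °C raised 5 of the 10 genes (Srxn1, Txnrd1, Gclm, Sod2 and Gclc) and lowered 3 (Gpx4, Keap1 and Sod1), while Nfe2l2 and Nqo1 did not pass the test. In KO-labelled mice, the same 5 genes and Sod1 rose, 0 fell and 4 did not pass. Cold changed most of the transcriptome in this tissue, so these counts are read beside the share over all tested genes. In control mice 31.6% of all tested genes rose and 33.4% fell, and in KO-labelled mice 33.7% rose and 34.9% fell. The threshold was a Benjamini-Hochberg adjusted p below 0.05 in the quasi-likelihood test of edgeR. The split over all genes in KO-labelled mice moved with the scaling, from 5825 up and 6035 down to 3223 up and 8384 down with library size alone and to 4694 up and 7369 down with upper-quartile factors. The median log2 fold change of the 10 genes was 0.47 in control and 0.41 in KO-labelled mice, against -0.01 and -0.03 for all tested genes. The 5 genes that rose in both genotypes had groups that did not overlap in either, and Gpx4 and Sod1 had groups that did not overlap, downward, in control mice, where 46.4% of all tested genes did not overlap (40.4% in KO-labelled mice).

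**Figure D1:**
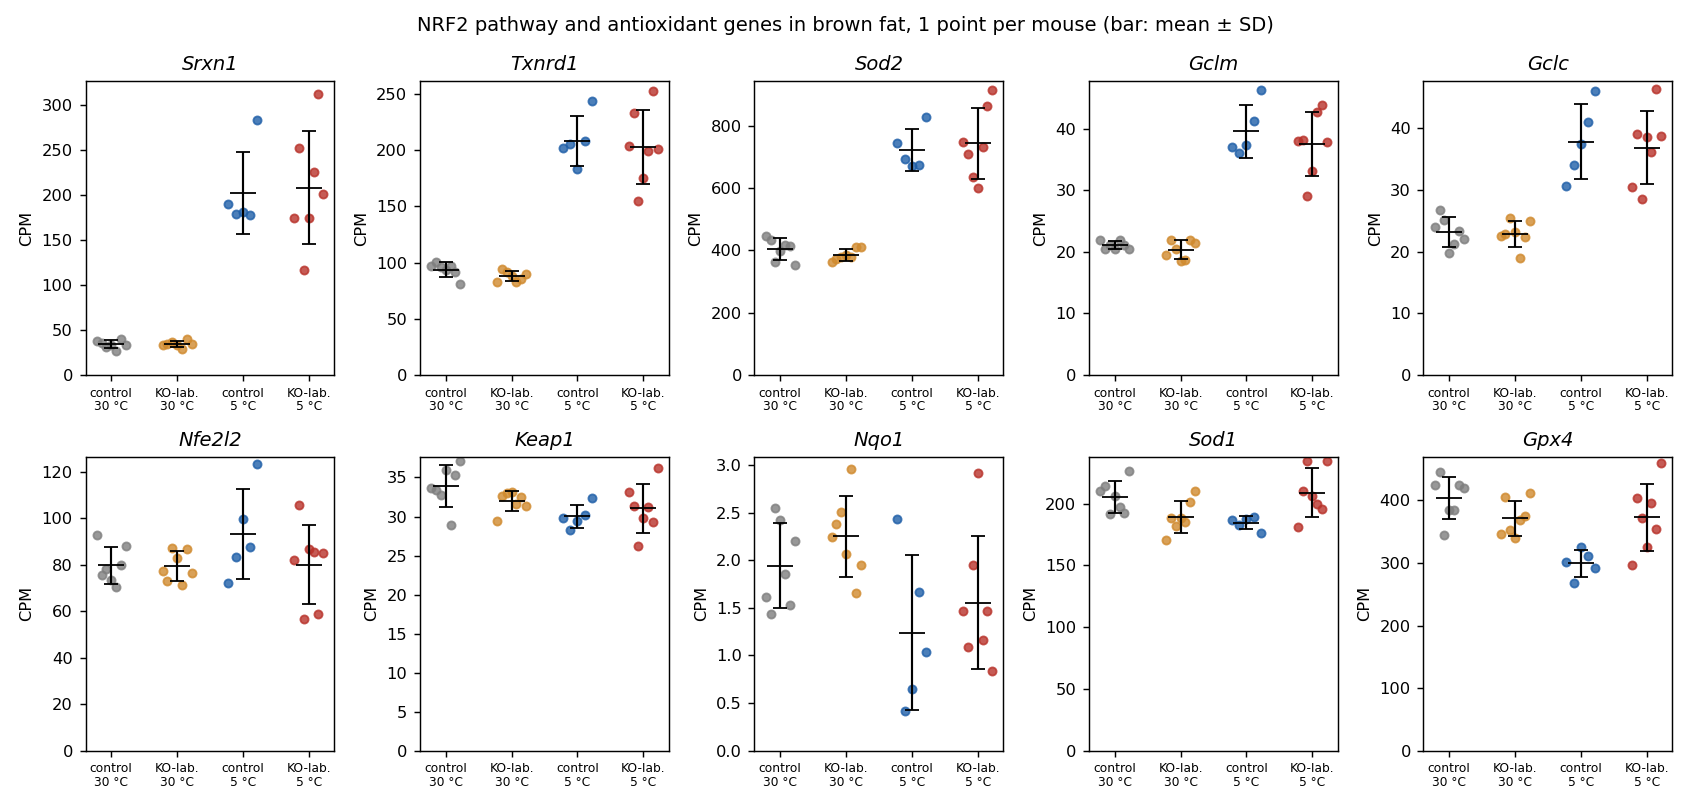
CPM of each of the 10 genes (y axis, from 0) in each of the 26 mice by group (x axis; KO-lab. stands for KO-labelled), with the mean and SD as black marks. In the upper row the mice at 5 °C of both genotypes stand above all mice at 30 °C, and in the lower row the groups lie closer together.

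Srxn1 encodes sulfiredoxin, the enzyme that restores peroxiredoxins whose active-site cysteine has been overoxidised by peroxide, and it had the largest change of the 10 genes. Its lowest, median and highest levels at 30 °C were 26.7, 33.4 and 40.0 CPM in the 7 control mice and 29.3, 34.4 and 40.0 CPM in the 7 KO-labelled mice. At 5 °C the 5 control mice had 190.3, 179, 181, 178 and 284 CPM, and the 7 KO-labelled mice ran from 116 through a median of 201 to 313 CPM. Every mouse at 5 °C was above every mouse at 30 °C, 4 of the 5 control mice lay close together, and mouse 21 stood above them. The change was 5.96-fold in control mice (log2 fold change 2.58, SE 0.16, edgeR adjusted p = 2.86e-13) and 6.03-fold in KO-labelled mice (2.59, SE 0.16, edgeR adjusted p = 7.3e-14).

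Txnrd1 encodes the cytosolic thioredoxin reductase, a selenoprotein that passes electrons from NADPH to thioredoxin. It was at 80.8, 96.5 and 101 CPM (lowest, median, highest) in control mice and at 82.7, 87.9 and 94.6 CPM in KO-labelled mice at 30 °C. At 5 °C the control mice had 202, 205, 183, 208 and 244 CPM and the KO-labelled mice 155, 202 and 253 CPM. The ranges at the 2 temperatures were far apart in both genotypes. The rise was 2.22-fold in control mice (log2 1.15, SE 0.09, edgeR adjusted p = 9.35e-12) and 2.31-fold in KO-labelled mice (1.21, SE 0.08, edgeR adjusted p = 7.77e-13).

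Gclc and Gclm encode the catalytic and the modifier subunit of glutamate-cysteine ligase, the enzyme that sets the rate of glutathione synthesis. Gclm went from 20.5, 21.0 and 22.0 CPM at 30 °C to 37.0, 36.0, 37.2, 41.3 and 46.3 CPM in the 5 control mice at 5 °C, and from 18.5, 20.4 and 22.0 to 28.97, 37.9 and 43.9 CPM in KO-labelled mice. Gclc went from 19.8, 23.3 and 26.7 CPM to 30.6, 34.0, 37.5, 41.0 and 46.1 CPM in control mice, and from 18.9, 22.8 and 25.4 to 28.5, 38.6 and 46.3 CPM in KO-labelled mice. Neither gene had a mouse at 5 °C within the 30 °C range of its genotype. Gclm rose 1.88-fold in control mice (log2 0.91, SE 0.08, edgeR adjusted p = 1.89e-10) and 1.85-fold in KO-labelled mice (0.88, SE 0.08, edgeR adjusted p = 6.38e-11). Gclc rose 1.63-fold (0.71, SE 0.11, edgeR adjusted p = 1.73e-06) and 1.61-fold (0.69, SE 0.10, edgeR adjusted p = 6.84e-07). Per kilobase of exon, the catalytic subunit remained above the modifier in every mouse, at 1.61 to 2.18 times its level in control and 1.70 to 2.10 times in KO-labelled mice at 30 °C, and at 1.38 to 1.68 and 1.34 to 1.95 times at 5 °C. This order rests on exon lengths summed over all transcripts, 3766 bases for Gclc and 6291 for Gclm.

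Sod2 encodes the manganese superoxide dismutase of the mitochondrial matrix. It was at 354, 415 and 447 CPM in control and at 361, 380.1 and 412 CPM in KO-labelled mice at 30 °C, and at 745, 695, 673, 673 and 830 CPM in the 5 control mice and 600.0, 733 and 916 CPM in the KO-labelled mice at 5 °C. Again no mouse at 5 °C fell within the 30 °C range. The rise was 1.79-fold in control mice (log2 0.84, SE 0.09, edgeR adjusted p = 2.24e-09) and 1.93-fold in KO-labelled mice (0.94, SE 0.08, edgeR adjusted p = 4.95e-11).

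**Figure D2:**
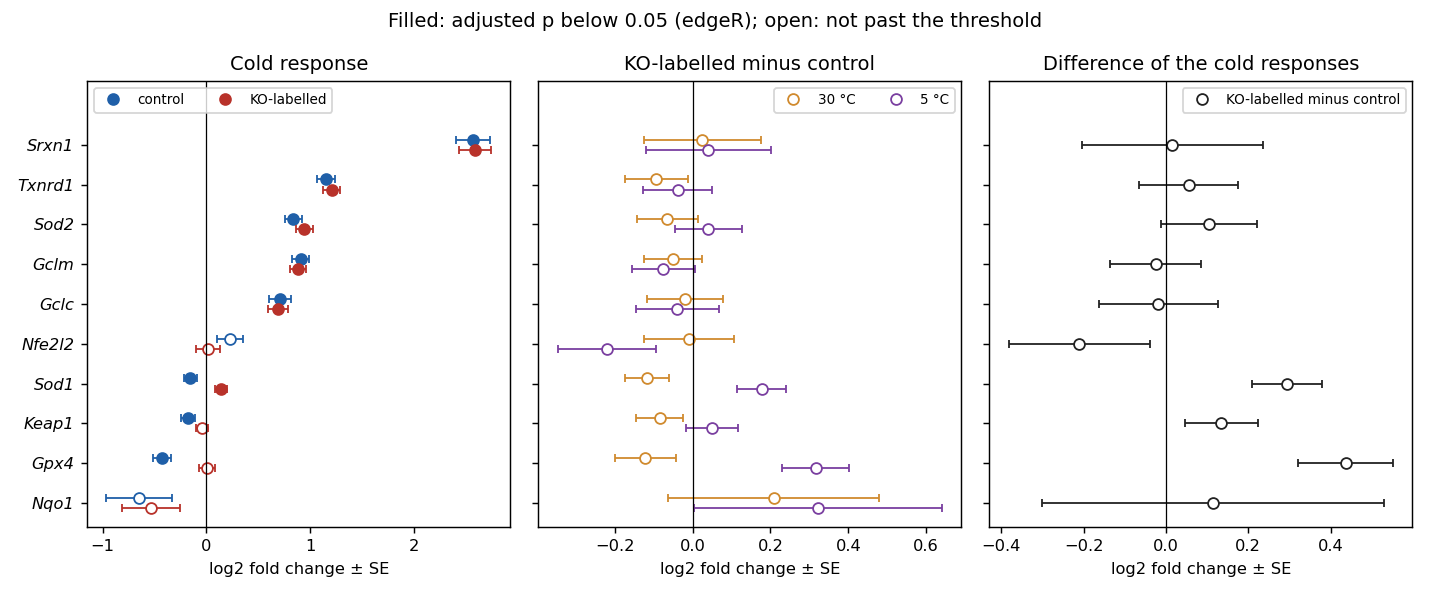
Log2 fold change with its SE (x axis) of the 10 genes (rows) for cold in each genotype, for KO-labelled against control mice at each temperature, and for the difference of the cold responses. The 5 upper genes lie right of 0 in both genotypes with nearly the same size, and no gene has a filled symbol in the middle and right panels.

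The sequences just upstream of the start sites are shown for Srxn1, Txnrd1, Gclm and Sod2, as 4 genes that rose in both genotypes, because antioxidant response elements often lie in such windows. They come from RefSeq on GRCm38.p6, run 5′ to 3′ on the gene's strand over the 250 bases before the start, and carry in capitals every match on either strand to the core of the antioxidant response element (TGACNNNGC) or to the AP-1 site (TGANTCA), which can overlap each other. Of the 10 genes, 9 matched a window and Gclc did not. Txnrd1 has 3 windows, of which the second is shown.
Srxn1, chr2:152105274-152105523, plus strand: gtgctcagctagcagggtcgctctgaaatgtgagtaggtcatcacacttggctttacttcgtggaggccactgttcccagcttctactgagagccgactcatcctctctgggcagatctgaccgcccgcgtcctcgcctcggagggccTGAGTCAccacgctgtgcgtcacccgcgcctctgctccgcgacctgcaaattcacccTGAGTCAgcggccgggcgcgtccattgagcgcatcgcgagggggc
Txnrd1, chr10:82858956-82859205, plus strand: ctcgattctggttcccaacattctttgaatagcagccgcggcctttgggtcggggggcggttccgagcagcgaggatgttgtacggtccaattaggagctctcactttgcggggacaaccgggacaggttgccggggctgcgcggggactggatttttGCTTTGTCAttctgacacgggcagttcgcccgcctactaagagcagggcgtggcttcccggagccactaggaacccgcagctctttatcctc
Gclm, chr3:122245307-122245556, plus strand: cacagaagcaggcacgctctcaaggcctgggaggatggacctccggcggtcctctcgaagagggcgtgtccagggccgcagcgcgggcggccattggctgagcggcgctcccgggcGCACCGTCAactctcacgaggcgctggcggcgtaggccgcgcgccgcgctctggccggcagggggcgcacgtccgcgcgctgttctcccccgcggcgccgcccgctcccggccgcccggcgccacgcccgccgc
Sod2, chr17:13007589-13007838, plus strand: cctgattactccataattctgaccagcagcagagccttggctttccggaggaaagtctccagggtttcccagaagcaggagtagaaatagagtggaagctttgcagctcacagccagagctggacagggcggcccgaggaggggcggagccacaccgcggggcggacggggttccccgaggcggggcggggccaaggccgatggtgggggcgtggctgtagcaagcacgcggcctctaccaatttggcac

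Over windows of 250 bases before and 50 after the start, 5 of the 9 genes held the core of the antioxidant response element, against 14.0% of 27025 genes and 12.4% of 32851 windows. They were Nfe2l2 (240 bases before the start), Gclm (134 before), Txnrd1 (92 before), Sod1 (56 before) and Srxn1 (29 after). The remaining 3 sites are shown with 8 bases on each side, also in capitals where the core matches.
Nfe2l2, chr2:75704895-75704903, minus strand: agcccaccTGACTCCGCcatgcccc
Sod1, chr16:90220706-90220714, plus strand: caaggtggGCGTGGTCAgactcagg
Srxn1, chr2:152105552-152105560, plus strand: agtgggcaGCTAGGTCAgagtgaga
The AP-1 site was found in Srxn1 alone of the 9, at 102 and 45 bases before the start, against 8.97% of all genes and 7.81% of all windows. The site at 45 bases is followed directly by the bases gc. The cyclic AMP response element TGACGTCA was in none of the 9, against 2.03% of all genes and 1.79% of all windows. The genes with a match include risers (Srxn1, Txnrd1, Gclm) and genes that did not rise in control mice (Nfe2l2, Sod1), and Sod2 rose with none of these letters in its window. A match is a description of the letters, and sites farther from the start were not searched.

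Nfe2l2, the gene of NRF2 itself, did not pass the test in either genotype. The control mice ran over 70.5, 78.0 and 92.6 CPM at 30 °C and had 72.2, 83.3, 99.6, 87.6 and 123 CPM at 5 °C. The KO-labelled mice ran over 71.4, 77.3 and 87.2 CPM at 30 °C and over 56.6, 85.2 and 106 CPM at 5 °C. The ranges at 30 °C and 5 °C overlapped in both genotypes, and the SD was 7.96 and 6.42 CPM at 30 °C and 19.4 and 17.1 CPM at 5 °C. The log2 fold change was 0.22 (SE 0.13, edgeR adjusted p = 0.122) in control mice and 0.01 (SE 0.12, edgeR adjusted p = 0.923) in KO-labelled mice. Without control mouse 16 at 5 °C, the value in control mice was 0.30 and passed (edgeR adjusted p = 0.0431). Over all 26 fits that left out 1 mouse, it went down to 0.10, with an edgeR adjusted p of up to 0.483. With the nuclear-retained RNA covariate it was -0.13 (edgeR adjusted p = 0.873).

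Keap1, the inhibitor, had small changes. In control mice it went from 28.9, 33.6 and 37.1 CPM at 30 °C to 29.8, 28.2, 29.4, 30.2 and 32.3 CPM at 5 °C, and in KO-labelled mice from 29.4, 32.5 and 33.1 to 26.2, 31.2 and 36.3 CPM. The groups overlapped in both genotypes. Its log2 fold change was -0.18 in control mice, a fall past the threshold (SE 0.07, edgeR adjusted p = 0.0217). It was at -0.04 (SE 0.06, edgeR adjusted p = 0.55) in KO-labelled mice. There it passed as a fall with library size alone (-0.35, edgeR adjusted p = 0.00747) and upper-quartile factors (-0.20, edgeR adjusted p = 0.0079). With these 2 scalings the median of all tested genes in KO-labelled mice was -0.34 and -0.18. The call in control mice was lost without control mouse 17 at 5 °C (edgeR adjusted p = 0.0613) and with no filter on low counts (edgeR adjusted p = 0.0597).

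Nqo1, a quinone reductase and a standard readout of NRF2 in liver, was the lowest of the 10 genes, with 6 to 63 counts per library. It was at 1.44, 1.85 and 2.55 CPM in control and 1.65, 2.24 and 2.96 CPM in KO-labelled mice at 30 °C, and at 2.43, 0.418, 0.644, 1.66 and 1.04 CPM in control and 0.837, 1.46 and 2.92 CPM in KO-labelled mice at 5 °C. The groups overlapped, with the mice at 5 °C reaching lower. The log2 fold change was -0.65 (SE 0.31, edgeR adjusted p = 0.0712) in control and -0.54 (SE 0.28, edgeR adjusted p = 0.0884) in KO-labelled mice. In control mice it passed without mouse 16 at 5 °C (-1.03, edgeR adjusted p = 0.00575) or without KO-labelled mouse 25 (-0.66, edgeR adjusted p = 0.0477), and in KO-labelled mice without mouse 25 at 5 °C (-0.78, edgeR adjusted p = 0.0136). It also passed with library size alone (-0.76 and -0.90 in control and KO-labelled mice) and upper-quartile factors (-0.76 and -0.70). In control mice it passed with the macrophage covariate (-0.75), and in KO-labelled mice in a fit to their groups alone (-0.58) and with the nuclear-retained RNA covariate (-1.02). Of 26 fits that left out 1 mouse, 24 did not pass in control mice (-0.78 to -0.45, edgeR adjusted p up to 0.207). In KO-labelled mice 25 did not pass (-0.64 to -0.43, edgeR adjusted p up to 0.179). Among other settings, the value in KO-labelled mice was as near 0 as -0.31 without passing.

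Sod1 encodes the copper-zinc superoxide dismutase of the cytosol, and Gpx4 the selenoprotein that reduces lipid hydroperoxides in membranes and guards against ferroptosis. Both were abundant, and both were lower at 5 °C than at 30 °C in control mice. Gpx4 ran over 345, 420 and 445 CPM in control mice at 30 °C and was at 302, 267, 326, 310.5 and 292 CPM at 5 °C. In KO-labelled mice it ran over 339, 369 and 412 CPM at 30 °C and over 297, 372 and 460 CPM at 5 °C. The control groups did not overlap, whereas the KO-labelled group at 5 °C spanned the whole 30 °C range. Gpx4 had a log2 fold change of -0.43 in control mice (SE 0.09, edgeR adjusted p = 8.41e-05) and was at 0.005 (SE 0.08, edgeR adjusted p = 0.958) in KO-labelled mice. Scaled by library size alone, it fell past the threshold in KO-labelled mice (-0.31, edgeR adjusted p = 0.0253). The median of all tested genes was -0.34 with that scaling. A processed pseudogene, Gpx4-ps2, had a mean of 21.5 CPM over the 26 mice and a log2 fold change of -0.53 and -0.02 for cold in the 2 genotypes. How reads shared by the 2 loci were counted is not given in the sources used here, so the level of Gpx4 is uncertain.

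Sod1 ran over 191, 206 and 226 CPM in control mice at 30 °C and was at 187, 183, 187, 189 and 176 CPM at 5 °C. In KO-labelled mice it ran over 170.3, 188 and 210.4 CPM at 30 °C and over 181, 206 and 235 CPM at 5 °C. All 5 control mice at 5 °C were below all 7 at 30 °C, and the KO-labelled groups overlapped. In control mice its log2 fold change was -0.15 (SE 0.06, edgeR adjusted p = 0.0351), and it rose by 0.14 in KO-labelled mice (SE 0.06, edgeR adjusted p = 0.0336). The fall was lost in 4 of 26 fits that left out 1 mouse (control mice 1 or 2 at 30 °C, or 17 or 21 at 5 °C), and the rise in 10 of 26 (control mouse 7 or KO-labelled mice 8 to 13 at 30 °C, or KO-labelled mice 23, 24 or 28 at 5 °C). The fall was also lost with no filter on low counts and with the nuclear-retained RNA, macrophage or red blood cell covariate (edgeR adjusted p from 0.0503 to 0.676). The rise was lost with no filter, with at least 10 counts in every mouse, in a fit to the KO-labelled groups alone and with the nuclear-retained RNA covariate (edgeR adjusted p from 0.109 to 0.226), and it was at -0.18 when scaled by library size alone and at -0.02 with upper-quartile factors. Scaf4, which overlaps Sod1 on the opposite strand, had a mean of 16.9 CPM.

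At 30 °C the genotypes did not differ in any of the 10 genes by the test: 0 were called by edgeR, 0 by DESeq2 and 0 had an unadjusted p below 0.05, where 0.081%, 0.278% and 7.65% of all tested genes did so. The log2 fold changes between KO-labelled and control mice ran from -0.12 (Gpx4) to 0.21 (Nqo1), with edgeR adjusted p-values from 0.653 to 0.996. At 5 °C edgeR again called 0 of the 10, against 0.139% of all tested genes, while 2 (Gpx4 and Sod1) had an unadjusted p below 0.05, against 13.4% of all tested genes, and DESeq2 called 1, Gpx4, against 1.14%. For the 5 genes that rose with cold, the differences at 5 °C lay between -0.08 (Gclm, SE 0.08) and 0.04 (Srxn1, SE 0.16). The cold responses of the 2 genotypes were then compared directly, and edgeR called 0 of the 10 against 1.16% of all tested genes, while 2 had an unadjusted p below 0.05, against 16.2% of all tested genes. DESeq2 called 2, Gpx4 and Sod1, against 2.82% of all tested genes. For Srxn1 the responses differed by 0.02 on the log2 scale (SE 0.22, edgeR adjusted p = 0.986), and for Nfe2l2 by -0.21 (SE 0.17, edgeR adjusted p = 0.584). These comparisons share their mice with one another and are not independent.

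Gpx4 and Sod1 came nearest to a difference between the genotypes. The cold response of Gpx4 was higher in KO-labelled mice by 0.44 on the log2 scale (SE 0.12, edgeR adjusted p = 0.0567; DESeq2 adjusted p = 0.0146), and at 5 °C itself 6 of the 7 KO-labelled mice were above the control mean (0.32, SE 0.09, edgeR adjusted p = 0.118; DESeq2 adjusted p = 0.0288). The response of Sod1 was higher by 0.29 (SE 0.09, edgeR adjusted p = 0.0858; DESeq2 adjusted p = 0.0235). Without KO-labelled mouse 22 at 5 °C, which was the lowest of its group in both genes, the edgeR adjusted p-values for the responses were 0.0223 for Gpx4 and 0.0389 for Sod1. Gpx4 also passed without control mouse 3 at 30 °C or KO-labelled mouse 25 at 5 °C, and over all 26 fits that left out 1 mouse the edgeR adjusted p ran up to 0.128 for Gpx4 and 0.147 for Sod1. With the macrophage covariate both passed (0.52, edgeR adjusted p = 0.0326, and 0.35, edgeR adjusted p = 0.0475). Scaled by library size alone, the differences were 0.25 for Gpx4 (edgeR adjusted p = 0.545) and 0.10 for Sod1 (edgeR adjusted p = 0.801). Pseudogene Gpx4-ps2 had a difference of responses of 0.51 (SE 0.14, edgeR adjusted p = 0.074).

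RNA that stays in the nucleus also differed between the groups. The summed CPM of Malat1, Neat1, Meg3 and Kcnq1ot1 was 8951 to 10573 in control mice and 10423 to 11779 in KO-labelled mice at 30 °C, and 14840 to 16273 in control mice and 10340 to 13577 in KO-labelled mice at 5 °C, so that the genotypes did not overlap at 5 °C. Adding the mean log2 CPM of these 4 RNAs to the fit brought the difference of responses of Gpx4 from 0.44 to -0.01 (edgeR adjusted p = 0.996) and left that of Sod1 at 0.29 (edgeR adjusted p = 0.563). The same covariate brought the cold response of Gpx4 in control mice from -0.43 to 0.16 (edgeR adjusted p = 0.719), and in those mice it also ended the calls of Keap1 (-0.06, edgeR adjusted p = 0.889), Sod1 (-0.15, edgeR adjusted p = 0.676) and Gclc (0.88, edgeR adjusted p = 0.104). Without the covariate these values were -0.18 for Keap1, -0.15 for Sod1 and 0.71 for Gclc. With the covariate the value of Keap1 moved toward 0, that of Sod1 hardly moved and that of Gclc moved away from 0. That score is itself apart between the temperatures in control mice (8.20 to 8.48 at 30 °C, 9.22 to 9.40 at 5 °C), and its effect and that of cold cannot be told apart there. It was also apart between the genotypes, with KO-labelled mice at 8.52 to 8.79 at 30 °C and 8.77 to 9.06 at 5 °C. Its effect and that of genotype therefore cannot be told apart in the difference of responses. With this covariate 0 of all 17286 tested genes were called in that difference. The 6 red blood cell markers, none of them at 0 in any group, summed to 233 to 1121 CPM and 289 to 609 CPM at 30 °C (control, KO-labelled) and to 417 to 685 CPM and 517 to 1498 CPM at 5 °C. The median sum went from 424 CPM at 30 °C to 455 CPM at 5 °C in control mice. In KO-labelled mice it went from 382 to 842 CPM. By edgeR, all 6 markers rose with cold in KO-labelled mice and 0 were called in control mice. In the difference of responses 0 of the 6 markers were called. With their score as a covariate, an alternative added after the data were seen, the difference of responses was 0.45 for Gpx4 (edgeR adjusted p = 0.0583) and 0.32 for Sod1 (edgeR adjusted p = 0.0634).

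**Figure D3:**
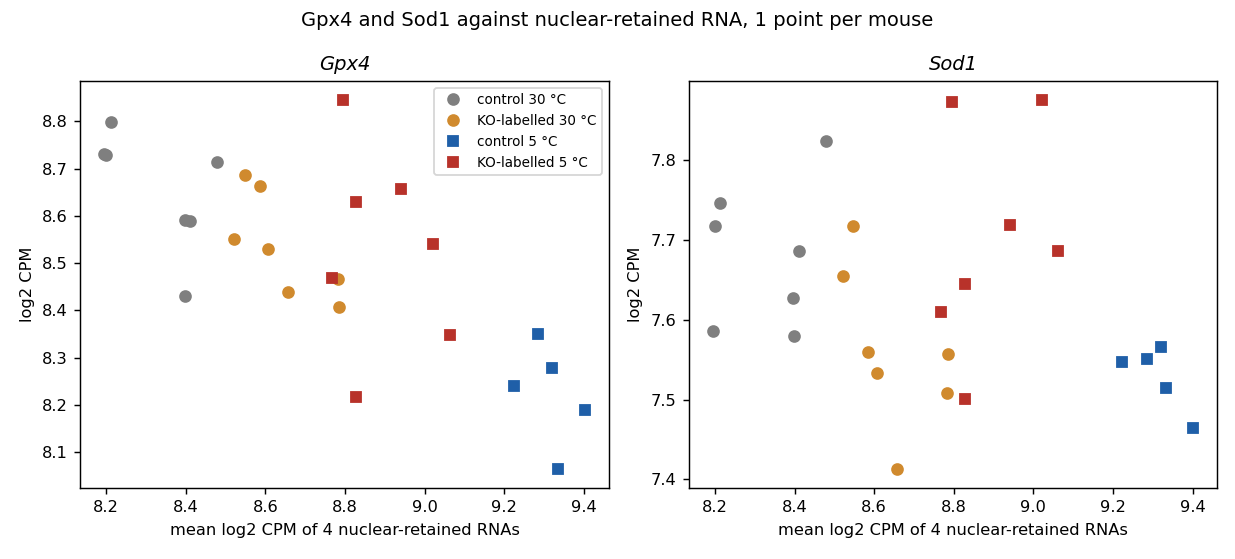
Log2 CPM of Gpx4 (left) and Sod1 (right) on the y axis against the mean log2 CPM of Neat1, Malat1, Meg3 and Kcnq1ot1 on the x axis, 1 point per mouse, circles at 30 °C and squares at 5 °C. The 5 control mice at 5 °C lie at 9.22 to 9.40 on the x axis, to the right of the 7 KO-labelled mice at 5 °C (8.77 to 9.06).

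Per kilobase of exon, the 10 genes covered a wide range in BAT. At 30 °C in control mice, Gpx4 stood highest at 234 ± 19.8 CPM per kb (SD, n = 7), followed by Sod1 (51.7 ± 3.24), Sod2 (40.4 ± 3.47), Nfe2l2 (21.0 ± 2.10), Txnrd1 (13.2 ± 0.907) and Srxn1 (12.0 ± 1.56). Keap1 (7.22 ± 0.573), Gclc (6.16 ± 0.634), Gclm (3.35 ± 0.105) and Nqo1 (1.25 ± 0.288) came last. Txnrd1 and Srxn1 overlapped, as did Keap1 and Gclc, while the other neighbours were apart. KO-labelled mice at 30 °C had the same order with the same overlaps. At 5 °C in control mice, Srxn1 had moved up to 71.8 ± 16.2 CPM per kb (SD, n = 5), overlapping Sod2 (72.3 ± 6.66) below Gpx4 (174 ± 12.7) and above Sod1 (46.5 ± 1.29). Sod2 was below Sod1 at 30 °C, at 0.621 to 0.858 of its level per kb in control and 0.773 to 0.842 in KO-labelled mice, and above it at 5 °C in every mouse, at 1.41 to 1.87 and 1.08 to 1.75 times. Lengths were summed over the exons of all transcripts, which lowers the level per kb where a shorter transcript is the main one. The length of Sod2, 10008 bases, includes long transcript ends, and that of Sod1 is 3970 bases. The order of genes per kb, including that of Sod2 and Sod1 at each temperature, rests on these lengths.

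Some mice at 5 °C were high or low in many of the 10 genes at once, and the 3 described were picked after their values were seen. Control mouse 21 had the highest level of its group in 7 of the 10 genes, which were Nfe2l2, Keap1 and the 5 genes that rose. KO-labelled mouse 24 had the lowest level of its group in 6, among them Nfe2l2, Keap1 and 4 of the 5. KO-labelled mouse 27 had the highest Srxn1, Txnrd1, Gclm and Gclc of its group while its Nfe2l2, at 58.7 CPM, was near the lowest of the group (56.6). Over all 26 mice, after subtracting group means, the Pearson r of Nfe2l2 was 0.56 with Keap1, 0.43 with Srxn1, 0.41 with Gclc, 0.34 with Gclm, 0.21 with Txnrd1 and 0.08 with Sod2, given as a description of libraries that also differ in depth. At 30 °C no mouse was highest in more than 3 genes of its group.

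**Figure D4:**
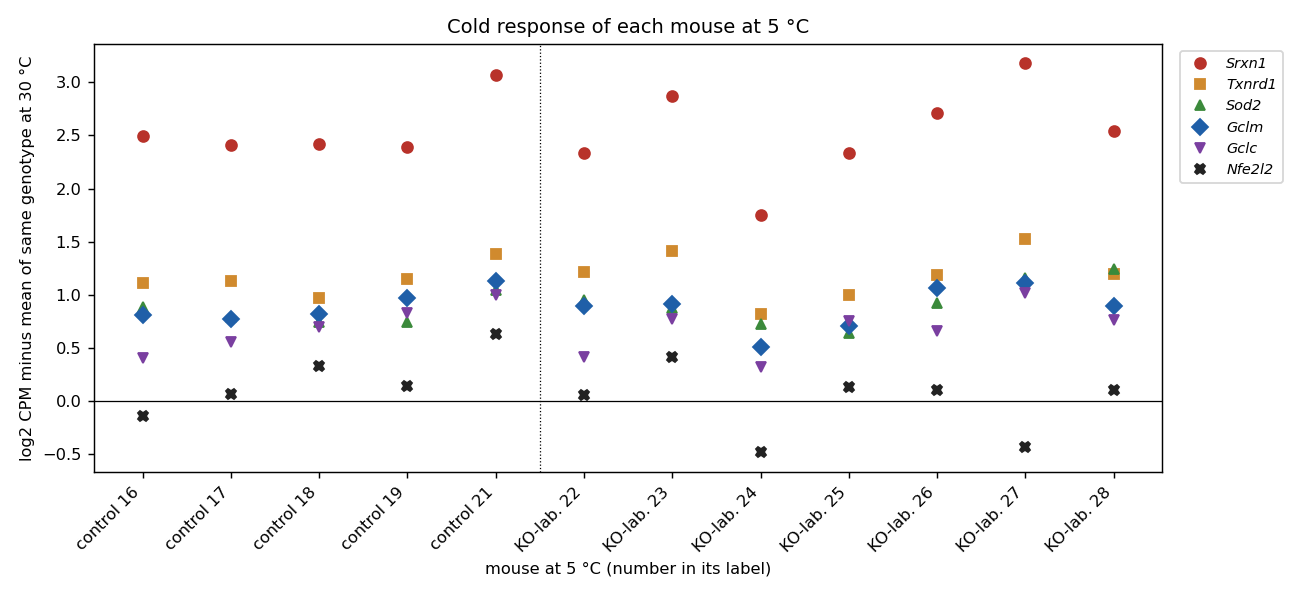
Log2 CPM of the 5 genes that rose and of Nfe2l2 in each mouse at 5 °C (x axis, numbered as in the labels), minus the mean of the same genotype at 30 °C (y axis). Control mouse 21 is high and KO-labelled mouse 24 low in all 6 genes, and KO-labelled mouse 27 is high in the 5 genes and below 0 in Nfe2l2.

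The genes whose level followed Nfe2l2 most closely from mouse to mouse, after subtracting group means, were Chd9 (Pearson r = 0.75, Spearman rho = 0.71), Nfya (0.75 and 0.71), Pex26 (0.73 and 0.61), Gm37864 (0.73 and 0.69) and Zkscan3 (0.72 and 0.75) over 26 mice. None of the other 9 genes was among these 5. Without KO-labelled mice 23 and 24 at 5 °C, which lay farthest out in Nfe2l2, the r values ran from 0.64 to 0.73. These are the highest of all tested genes and describe these libraries, which also differ in depth.

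Of the partners and regulators of NRF2, 9 of 13 rose and 2 fell in control mice, and 9 rose and 3 fell in KO-labelled mice. The median log2 fold change was 0.36 and 0.45. Counts of this list and of those that follow stand beside the share over all tested genes. That share was 31.6% up and 33.4% down in control mice, and 33.7% up and 34.9% down in KO-labelled mice. No list was tested against it. Maff, a small MAF partner, went from 7.72 to 38.7 CPM on average in control mice (log2 2.32, SE 0.22) and rose by 3.11 (SE 0.22) in KO-labelled mice. Sqstm1, the autophagy receptor p62 that binds KEAP1, rose by 1.91 (SE 0.17) and 1.89 (SE 0.16), from 169 to 632 CPM in control mice. Mafk rose by 1.17 (SE 0.20) and 1.55 (SE 0.19). The 2 that fell in control mice were Btrc, a ubiquitin ligase adaptor, and Gsk3b, a kinase that marks NRF2 for it. Btrc fell by 1.22 (SE 0.09) and 1.21 (SE 0.08), and Gsk3b by 0.31 (SE 0.08) and 0.47 (SE 0.08). Cul3, Rbx1 and Syvn1, also on the degradation side and in the same list, were not called as falls in control mice.

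The other known NRF2 targets moved in both directions. Of 33 listed, Gsta1 and Gsta2 were too low to test. Of the 31 tested, 6 rose and 18 fell in control mice (median -0.54) and 11 rose and 14 fell in KO-labelled mice (median -0.13). Hmox1, the heme-degrading oxygenase, rose most, from 9.24 to 542 CPM in control mice (log2 5.87, SE 0.30) and from 10.4 to 422 CPM in KO-labelled mice (5.34, SE 0.28). The cystine importer Slc7a11 rose by 3.16 (SE 0.51) and 3.09 (SE 0.48), from below 1 CPM, and Sesn2, a stress-induced sestrin, by 1.87 (SE 0.25) and 2.37 (SE 0.24). On the falling side were the epoxide hydrolase Ephx1 (-2.001, SE 0.15, and -1.63, SE 0.13) and the carbonyl reductases Cbr1 (-1.59 and -1.45) and Cbr3 (-1.25 and -1.22). Every change named here and in the lists that follow had an edgeR adjusted p below the threshold of 0.05 in both genotypes, except where a value is given for Gpx1 and Selenop.

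**Figure D5:**
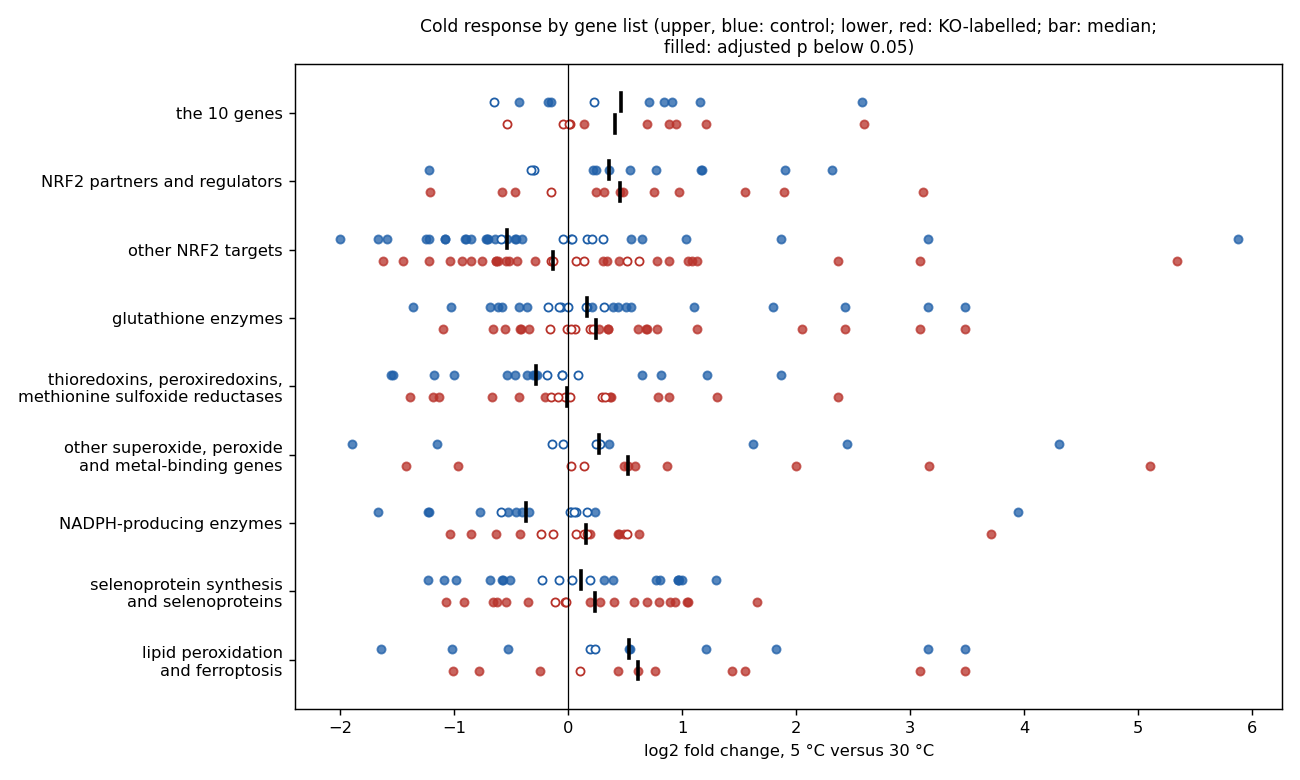
Log2 fold change between 5 °C and 30 °C (x axis) of each tested gene in the 10 genes and 8 related lists (rows), blue for control and red for KO-labelled mice, with the median of each list as a bar and filled symbols for an adjusted p below 0.05. The medians lie on both sides of 0, and single genes such as Hmox1 at 5.87 stand far to the right.

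Genes of glutathione handling split 10 up and 7 down of 24 in control mice and 12 up and 6 down in KO-labelled mice (median 0.16 and 0.24). Slc3a2, the partner chain of Slc7a11, went from 26.2 to 293 CPM in control mice and rose by 3.48 (SE 0.08) in both genotypes, and the glutaredoxin Glrx rose by 2.43 in both (SE 0.17 and 0.16). The transferases Gstt1 (-1.37 and -1.09) and Gstz1 (-1.02 and -0.66) and the peroxidase Gpx7 (-0.58 and -0.55) fell. Of 18 thioredoxins, peroxiredoxins and methionine sulfoxide reductases, 4 rose and 10 fell in control mice and 6 rose and 6 fell in KO-labelled mice (median -0.28 and -0.01). Prdx6 rose by 1.22 (SE 0.06) and 1.30 (SE 0.06), and mitochondrial thioredoxin Txn2 by 0.82 and 0.79, while Sesn3 (-1.55 and -1.39), Txnrd3 (-1.54 and -1.13) and Msrb3 (-1.18 and -1.19) fell.

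Of 11 other genes of superoxide, peroxide and metal binding, 5 rose and 2 fell in control mice and 7 rose and 2 fell in KO-labelled mice (median 0.27 and 0.53). The metallothioneins Mt2 (4.31, SE 0.37, and 5.10, SE 0.37) and Mt1 (2.44, SE 0.25, and 3.16, SE 0.25) and the NADPH oxidase Nox4 (1.63 and 2.00) rose, and Cybb, the oxidase of phagocytes (-1.90 and -1.42), and Ccs, the chaperone that loads copper into SOD1 (-1.15 and -0.96), fell. Of 16 NADPH-producing enzymes, 2 rose and 8 fell in control mice and 6 rose and 4 fell in KO-labelled mice (median -0.37 and 0.15), and none of the 16 was called in the difference of responses. The mitochondrial folate enzyme Mthfd2 rose by 3.95 (SE 0.27) and 3.71 (SE 0.26). Tkt, the transketolase of the pentose phosphate pathway (-1.67 and -0.63), Nadk2 (-1.23 and -1.03) and Idh1 (-1.22 and -0.85) fell.

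Selenoprotein genes bear on Gpx4 and Txnrd1, whose proteins contain selenocysteine. Of 20 genes for selenoprotein synthesis and other selenoproteins, 9 rose and 7 fell in control mice and 11 rose and 6 fell in KO-labelled mice (median 0.11 and 0.23). The selenium receptor Lrp8 (1.30 and 1.66), Selenos (0.98 and 1.05) and Secisbp2, which recodes the stop codon for selenocysteine (0.96 and 1.05), rose, and Selenom (-1.23 and -1.07), the kinase Pstk (-1.09 and -0.91) and Selenoh (-0.99 and -0.62) fell. Of 12 genes of lipid peroxidation and ferroptosis, Alox15 was too low to test, and of the other 11, 6 rose and 3 fell in control mice and 7 rose and 3 fell in KO-labelled mice (median 0.53 and 0.62). They include Slc7a11 and Slc3a2, given above. Gch1, which makes the antioxidant cofactor tetrahydrobiopterin, rose by 1.83 (SE 0.23) and 1.55 (SE 0.22), and Alox12 (-1.65 and -0.78), Dhodh (-1.02 and -1.01) and Vkorc1l1 (-0.53 and -0.24) fell.

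Between the genotypes, no gene of these 8 lists was called at 30 °C. Selenop, the selenium transport protein, was the only one called at 5 °C. Selenop and Gpx1, the abundant cytosolic glutathione peroxidase and like GPX4 a selenoprotein, were called in the difference of responses. Over all tested genes, edgeR called 0.081% at 30 °C, 0.139% at 5 °C and 1.16% in the difference of responses. Selenop ran over 528, 640.2 and 679 CPM (lowest, median, highest) in control mice at 30 °C and over 410, 449 and 468 CPM at 5 °C, and over 532, 589 and 608 CPM and 475, 551 and 656 CPM in KO-labelled mice. All 7 KO-labelled mice at 5 °C were above all 5 control mice at 5 °C, as in 0.33% of all tested genes. The cold response was -0.51 (SE 0.07) in control and -0.03 (SE 0.07, edgeR adjusted p = 0.696) in KO-labelled mice, a difference of 0.48 (SE 0.10, edgeR adjusted p = 0.0239). For Gpx1 the responses were -0.06 (SE 0.07, edgeR adjusted p = 0.473) and 0.35 (SE 0.06), a difference of 0.40 (SE 0.09, edgeR adjusted p = 0.0355). With the nuclear-retained RNA score in the fit the differences were 0.51 for Selenop (edgeR adjusted p = 0.404) and 0.33 for Gpx1 (edgeR adjusted p = 0.546), and neither passed. Both calls were also lost with library size alone (0.26, edgeR adjusted p = 0.299, and 0.22, edgeR adjusted p = 0.578) and with no filter on low counts (edgeR adjusted p = 0.0544 and 0.106), and that of Gpx1 with the macrophage (edgeR adjusted p = 0.0544) and red blood cell (edgeR adjusted p = 0.0549) covariates.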

How the data were processed

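Raw counts per gene in BAT of 26 mice were used. Per the submitters' processing notes and the study's methods, the authors aligned 100-base reads of stranded, rRNA-depleted total RNA to mm10 with STAR 2.5.2b and deposited the counts made by featureCounts 1.5.2 with GENCODE M13. The strand and multimapping settings of the counting were not given in the sources used here. Symbols came from GENCODE M21, which matched 50462 of 50686 gene IDs. Sums over exons of all transcripts gave the lengths. Upstream sequences came from RefSeq (GRCm38.p6).

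Genes were kept with filterByExpr by group (17286). As in the authors' methods, a single model with a term for each of 4 groups was fitted with edgeR's quasi-likelihood test, here edgeR 4.0.16 in legacy mode under R 4.3.3, where the authors used edgeR 3.22.0. TMM factors were used, and p-values were adjusted by Benjamini-Hochberg over all tested genes with a threshold of 0.05. Log2 CPM had a prior count of 2. Cold was compared within genotype and genotype within temperature, and an interaction contrast compared the 2 cold responses. The fit was tested on simulated data. The alternatives were DESeq2 1.42.0, 2 scalings, 2 filters, the revised and the robust quasi-likelihood methods, fits restricted to the groups of a comparison, covariates from marker scores, and leaving out each mouse in turn.

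The 10 genes and the other lists were chosen with earlier results of these data known. Named were all 10 genes, and from each other list up to 3 genes that rose most and 3 that fell most with cold on average, among those past the threshold in both genotypes with at least 1 CPM in a group, any gene called between genotypes or in the difference of responses, and the 5 genes that most resembled Nfe2l2 by Pearson r. Scaf4, Gpx4-ps2, Afdn, Kng1 and the single mice described were added outside this rule. Each library was taken as a separate mouse, as the labels number them.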

Additional observations from a re-analysis of the deposited data

Results flagged for a closer look

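Srxn1 in control mouse 21 at 5 °C, at 284 CPM, stood apart from the other 4 control mice at 5 °C, which lay between 178 and 190.3 CPM. Its gap to the nearest mouse was 0.883 of the whole range, above Dixon's critical value of 0.71. Over the 10 genes and 4 groups, 40 sets of mice were checked and 1 stood out in this way, where chance flags about 1 in 20, or 2 of 40. Without this mouse the cold response of Srxn1 in control mice was 2.42 on the log2 scale.

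For 4 genes of the lists, the cold responses of the genotypes differed past the threshold in edgeR's interaction test with Benjamini-Hochberg adjustment. Of all tested genes, 1.16% did so. Gpx1 differed by 0.40 (adjusted p = 0.0355) and Selenop by 0.48 (adjusted p = 0.0239), both higher in KO-labelled mice. The nuclear-retained RNAs Neat1 (-1.61, adjusted p = 0.00268) and Kcnq1ot1 (-0.48, adjusted p = 0.0327) had lower responses in KO-labelled mice. At 5 °C itself, Neat1 differed by -0.99 between KO-labelled and control mice (edgeR adjusted p = 0.0206) and Selenop by 0.36 (edgeR adjusted p = 0.0428). The difference of responses was lost in 10 of 26 fits that left out 1 mouse for Gpx1, in 9 for Kcnq1ot1 and in 1 for Selenop, and at 5 °C the call of Selenop was lost in 22 and that of Neat1 in 4.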

How the results depend on the processing

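The rises of Srxn1, Txnrd1, Gclm and Sod2 passed the threshold in both genotypes under every alternative run, and that of Gclc under all but the nuclear-retained RNA covariate in control mice (0.88, adjusted p = 0.104). Of 1835 alternative values for the 10 genes, 1668 kept their sign and side of the threshold, 114 changed sign without being past it before or after, 26 lost the call, 23 gained it and 4 turned in direction. Those 4 were Gpx4 in control mice with the nuclear-retained RNA covariate (0.16), Gpx4 in KO-labelled mice with library size alone (-0.31), and Sod1 in KO-labelled mice with library size alone (-0.18) and upper-quartile factors (-0.0155). Of 3690 values for the other 44 named genes, 3585 kept sign and side, 94 lost the call, and 1 turned in direction, Kcnq1ot1 in the difference of responses with the nuclear-retained RNA covariate (0.0231), a score of which Kcnq1ot1 is itself a part, so that this shift is built in and bears on nothing. Library size alone moved the median of all genes for cold from -0.01 to -0.14 in control and from -0.03 to -0.34 in KO-labelled mice, for genotype at 30 °C from -0.02 to 0.13 and for the difference of responses from 0.04 to -0.15. The cause of these changes was not tested.

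The number of the 10 genes called for cold in control mice was 4 with the nuclear-retained RNA covariate in place of 8. For genotype at 5 °C it was 1 with DESeq2 and 0 to 1 when 1 mouse was left out (1 without KO-labelled mouse 22), in place of 0. For the difference of responses it was 2 with DESeq2 and with the macrophage covariate and 0 to 2 when 1 mouse was left out (2 without KO-labelled mouse 22, 1 without KO-labelled mouse 25 or without control mouse 3), in place of 0. Leaving out 1 mouse gave 6 to 10 calls for cold in control mice, 5 to 7 in KO-labelled mice and 0 for genotype at 30 °C.

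Over all genes, edgeR called 14 for genotype at 30 °C, 24 at 5 °C and 200 for the difference of responses. DESeq2 called 48, 197 and 488, no filter on low counts 9, 15 and 27, the nuclear-retained RNA covariate 2, 2 and 0 (1904 at an unadjusted p below 0.05), and library size alone 34 and 5 for the first pair. At 5 °C the count was 45 with at least 10 counts in every mouse and 9 in a fit to only the groups compared, and the red blood cell covariate gave 141 there and 413 for the difference. The nuclear-retained RNA covariate left 3629 of 11233 calls for cold in control mice. Leaving out 1 mouse gave 7 to 93 at 30 °C (93 without control mouse 7), 7 to 100 at 5 °C (100 without KO-labelled mouse 22) and 49 to 371 for the difference (371 without control mouse 7, 49 without KO-labelled mouse 8). The split of rises and falls for the difference was 50 to 150, against 27 to 246 with upper-quartile factors and 0 to 278 with library size alone. At 5 °C it was 8 to 16, against 7 to 24 and 4 to 1, and at 30 °C 10 to 4, against 13 to 1 and 34 to 0.

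No paired analysis was possible because the groups share no replicate number. Depth limits Nqo1 most, at 63 counts or fewer in each library.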
